A study of Homo sapiens with 12 samples.

Results

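The DNAJ proteins, also called HSP40 proteins, are the cochaperones of HSP70. The genes described here are those whose symbol is DNAJA, DNAJB or DNAJC followed by a number, leaving out DNAJB1, DNAJB9, DNAJB11 and DNAJC3. Of the 60641 symbols in the deposited count table, 39 met this rule: 4 of class A, 10 of class B and 25 of class C. RNA was sequenced from SRA01/04, an immortalised human lens epithelial cell line. The groups, each with 3 libraries at 24 hours, were untreated cells (NC), cells given asparagine alone (NC-A), cells given 1,2-DHN alone (DHN) and cells given 1,2-DHN together with asparagine (DHN-A). The compound 1,2-DHN is 1,2-dihydroxynaphthalene, which cells make from naphthalene and which oxidises to a reactive quinone. All groups were the same line, and the sources used here give neither doses nor the order of addition. The question of the study is how asparagine alters the response of these cells to 1,2-DHN.

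Every DNAJ protein carries a J domain, which binds HSP70 and stimulates its ATP hydrolysis so that HSP70 closes on its client protein. Class A members also hold a glycine- and phenylalanine-rich stretch and a zinc-binding region, class B members hold the glycine- and phenylalanine-rich stretch, and class C members share only the J domain and act at particular sites such as the ribosome, the mitochondrial inner membrane or clathrin coats. In the lens, where proteins are kept for life, chaperones are known for holding crystallins and other proteins in solution. Several cytosolic DNAJ genes are known targets of heat shock factor HSF1, which binds repeated GAA units in DNA.

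The promoters of DNAJA1 and DNAJB6 are shown because, of the DNAJ promoters searched, they alone hold 3 such units in the spacing given here. That of DNAJB4 is shown because DNAJB4 had the largest rise with 1,2-DHN among the genes meeting the rule and holds no match. Sequences are from RefSeq (GRCh38.p14), 5′ to 3′ on the gene's strand. RefSeq windows of 300 bases across the start of transcription matched 35 of the 39 genes. Capitals mark matches to GAANNTTCNNGAA on either strand. The start site is base +1, and the stretches before the start of DNAJB6 and DNAJB4 are cut to bases outside annotated exons.
DNAJA1, chr9:33025269-33025296, + strand: ccgggcgGAACTTTCCAGAAcgctcggt
DNAJB6, chr7:157336854-157336965, + strand: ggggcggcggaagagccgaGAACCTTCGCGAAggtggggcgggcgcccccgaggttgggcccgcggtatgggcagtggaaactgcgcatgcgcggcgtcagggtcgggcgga
DNAJB4, chr1:77979111-77979174, + strand: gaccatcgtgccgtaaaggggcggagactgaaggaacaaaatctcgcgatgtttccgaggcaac
The match lies at +4 to +16 in DNAJA1 and at -131 to -119 in DNAJB6. The letters GAANNTTCNNGAA occurred in 2 of the 35 DNAJ promoters and in 133 of all 27305 promoters of this length (0.487%). The shorter GAANNTTC or TTCNNGAA, which lies inside the longer motif, occurred in 4 of 35 (DNAJA1, DNAJB6, DNAJB7 and DNAJC15) and in 13.7% of all promoters. The antioxidant response core TGACNNNGC, on either strand, occurred in DNAJA2, DNAJB6, DNAJC10 and DNAJC11, and in 13.6% of all promoters. A match describes letters only, and no match says only that these letters are not in the window.

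Total counts per library ran from 12381071 to 27526206, and the biological coefficient of variation in edgeR's fit was 4.60%. On the first principal component of all tested genes the library NC-A 1 lay at 65.1, apart from NC-A 2 and NC-A 3 at 12.5 and 10.4. Lens markers were mostly near 0: 7 of 20 passed the filter on low counts, and CRYGC and CRYGD were at 0 in every library. Of the same list, PAX6 at 21.55 to 30.81 CPM (counts scaled to the library's total) and SIX3 at 10.44 to 15.51 were present in every library. The summed lens level was 44.4 to 50.5 CPM in NC and NC-A, 62.3 to 67.7 in DHN and 49.8 to 53.3 in DHN-A. Fibroblast markers, with 8 of 10 passing, summed to 1702 to 1807 CPM in NC, 1496 to 1519 in NC-A and 959 to 1016 in the DHN libraries, with 1452 to 1516 in DHN-A. Of the keratinocyte, immune and pigment cell markers, 2 of 8, 4 of 8 and 4 of 7 passed, and KRT5, KRT14, CD3E and TYR were at 0 in at least 1 library and never above 0.483 CPM. Other members of these lists were present in every library: KRT10 at 28.91 to 37.77 CPM, SFN at 10.55 to 14.42, CSF1R at 3.337 to 6.517 and MITF at 5.862 to 9.013. The summed lens level was thus highest and the summed fibroblast level lowest in DHN, the group in which the DNAJ genes below also stood apart. Within the lens list CRYAB, a small heat shock protein, ran from 0.372 to 12.1 CPM over the 12 libraries. Within the fibroblast list COL1A1 ran from 675.9 to 1262 CPM and COL6A3 from 135.1 to 343.4, and no other gene of that list passed 109.4 (THY1). The keratinocyte sum was 39.6 to 44.8 CPM in NC and 48.4 to 52.5 in DHN, and the immune sum 6.41 to 6.84 in NC and 8.61 to 10.02 in DHN. The part of these markers in the DNAJ results was not tested. In bulk RNA, fewer cells of a type and less RNA per cell cannot be told apart. The labels do not say that replicates were separate cultures, so the p-values reflect no more than the spread of these samples, and that spread may be technical.

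In untreated cells DNAJA1, a cytosolic class A cochaperone, had the highest level per kilobase of deposited gene length, at 153 ± 5.14 CPM per kilobase (SD, n = 3). DNAJC8, a spliceosome-associated class C member, followed at 78.6 ± 3.48 CPM per kilobase. DNAJB6, a cytosolic and nuclear suppressor of protein aggregation, came next at 33.6 ± 0.232 CPM per kilobase. These levels stood apart from each other and from the next by more than their SD. DNAJC5, the cysteine string protein of vesicle membranes, at 29.8 ± 1.41, and DNAJA2, another cytosolic class A member, at 29.2 ± 0.645 CPM per kilobase, did not differ beyond their spread. The order depends on the deposited length, which is not that of a single transcript. For DNAJB6 it is 14981 bases, equal to all its annotated exons together, and for DNAJA1 it is 2668. Without scaling by length DNAJB6 stood above DNAJA1 in NC, at 503 ± 3.48 and 408 ± 13.7 CPM.

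Across the family the level per length ran over several orders of magnitude, and the classes overlapped. The median member in NC had 18.7 CPM per kilobase in class A, 5.44 in class B and 5.47 in class C. These medians take in every member, also the genes that failed the filter on low counts, which were of classes A and B only. At the low end, 5 genes failed the filter: DNAJA4 with 1 to 15 counts per library, DNAJB7 with 0 to 6, DNAJB13 with 0 to 5, DNAJB3 with 0 to 3 and DNAJB8 with 0 or 1. DNAJB7, DNAJB8, DNAJB13 and DNAJB3 are known mainly from testis. The other 34 were tested, namely 3 of 4 in class A, 6 of 10 in class B and all 25 in class C.

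**Figure D1:**
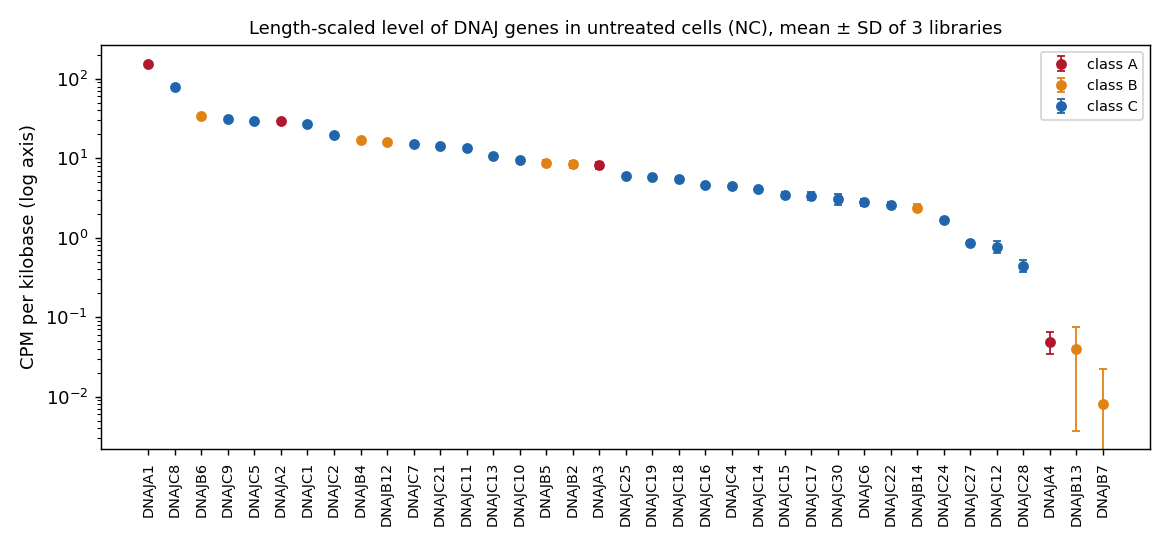
Mean level of 37 DNAJ genes per kilobase of gene length in the 3 NC libraries, as CPM per kilobase on a log axis, with bars for the SD (the lower bar of DNAJB7 runs below the axis) and colours for the class. DNAJA1 stands highest at 153 CPM per kilobase, and DNAJB3 and DNAJB8, with 0 counts in NC, are not drawn.

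DNAJ genes took a larger share of the counts in cells given 1,2-DHN alone than in untreated cells. The 39 genes summed to 2948 to 3031 CPM in the NC libraries, 2776 to 2895 in NC-A and 3356 to 3512 in the DHN libraries, with 2805 to 2871 in DHN-A. All DHN libraries lay above the other 9. DNAJA1, DNAJB4 and DNAJC2, grouped here because they had the largest gains, held 602 ± 21.1 CPM in NC, 530 ± 20.3 in NC-A and 1067 ± 47.8 in the DHN libraries, with 530 ± 9.20 in DHN-A (SD, n = 3). The other 36 genes together held 2384 ± 31.5 CPM in NC, 2309 ± 39.9 in NC-A and 2386 ± 41.7 in the DHN libraries, with 2308 ± 31.1 in DHN-A.

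In DHN against NC, 10 of the 34 tested genes rose and 6 fell by edgeR's quasi-likelihood test (adjusted p under 0.05 over all 17889 tested genes), while 19.7% of all tested genes rose and 19.0% fell. The median log2 change was -0.00 over the 34 genes and 0.01 over all tested genes. By class, 3 of 3 tested class A genes rose. In class B, 2 of 6 rose and 0 fell, with 4 not called. In class C, 5 of 25 rose and 6 fell. The median log2 change was 0.29 in class A, 0.02 in class B and -0.03 in class C, and no class was tested as such. Of the 16 calls, 11 held when any 1 of the 12 libraries was left out.

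Of the cytosolic and nuclear class A and B genes, 4 of 6 tested rose and 0 fell, beside 19.7% and 19.0% of all tested genes. DNAJB4, a class B member close in sequence to DNAJB1 (chr1:77979175-78017964, GENCODE release 29 on GRCh38), was at 60.3, 65.4 and 61.4 CPM in NC, 59.4, 56.7 and 59.9 in NC-A and 125, 124 and 119 in the DHN libraries, with 59.4, 61.2 and 58.4 in DHN-A. The 3 DHN libraries lay far above the other 9, which overlapped apart from NC standing above NC-A. In DHN against NC it rose by 0.97 ± 0.048 on the log2 scale (SE, edgeR adjusted p = 8.3e-22). This was a 1.96-fold rise and the largest among the tested genes that met the rule, which leaves out DNAJB1.

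DNAJA1 (chr9:33025211-33039907) was at 414, 417 and 392 CPM in NC, 320, 337 and 349 in NC-A and 722, 698 and 666 in the DHN libraries, with 340, 325 and 338 in DHN-A. It rose by 0.77 ± 0.038 on the log2 scale (edgeR adjusted p = 1.05e-21). The DHN libraries did not overlap with any other group, and both asparagine groups lay below NC.

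DNAJB2, a class B cochaperone with ubiquitin-binding motifs, was at 51.9, 44.3 and 53.7 CPM in NC and 65.4, 66.8 and 76.0 in DHN, and rose by 0.48 ± 0.071. DNAJA2 was at 148, 141 and 145 CPM in NC and 180, 183 and 167 in DHN, and rose by 0.29 ± 0.042 (edgeR adjusted p = 2.15e-07). Neither gene's DHN libraries overlapped with NC. DNAJB6, the other gene with a GAANNTTCNNGAA match, was at 501, 501 and 507 CPM in NC and 495, 505 and 495 in DHN, and was not called (-0.01, 95% interval -0.09 to 0.07). DNAJB5, another cytosolic class B member, was not called either (-0.13 ± 0.067, edgeR adjusted p = 0.137).

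Genes of the nucleus, ribosome and RNA had 3 of 5 that rose and 0 that fell, beside 19.7% and 19.0% of all tested genes. DNAJC2, the zuotin-like member of the ribosome-associated complex (chr7:103312474-103344873), was at 136, 134 and 124 CPM in NC, 130, 137 and 141 in NC-A and 266, 248 and 233 in the DHN libraries, with 138, 133 and 136 in DHN-A. All DHN libraries lay above all others, and the remaining 3 groups overlapped. It rose by 0.92 ± 0.045 in DHN against NC (edgeR adjusted p = 1.05e-21). PMPCB on the opposite strand covers 9.57% of its exon bases, and the sources used here do not give the strand setting of the counting.

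DNAJC21, which acts in assembly of the large ribosomal subunit, was at 142, 138 and 129 CPM in NC and 170, 169 and 152 in DHN, and rose by 0.26 ± 0.046. DNAJC9, a histone cochaperone, rose by 0.16 ± 0.057 (edgeR adjusted p = 0.0285). Its call ended without NC 1, NC 2, NC 3, DHN 1 or DHN 2 (edgeR adjusted p from 0.0584 to 0.129), and genes on the opposite strand cover 28.6% of its exon bases. DNAJC8 (-0.02) and DNAJC17 (-0.04), both splicing-associated, were not called.

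**Figure D2:**
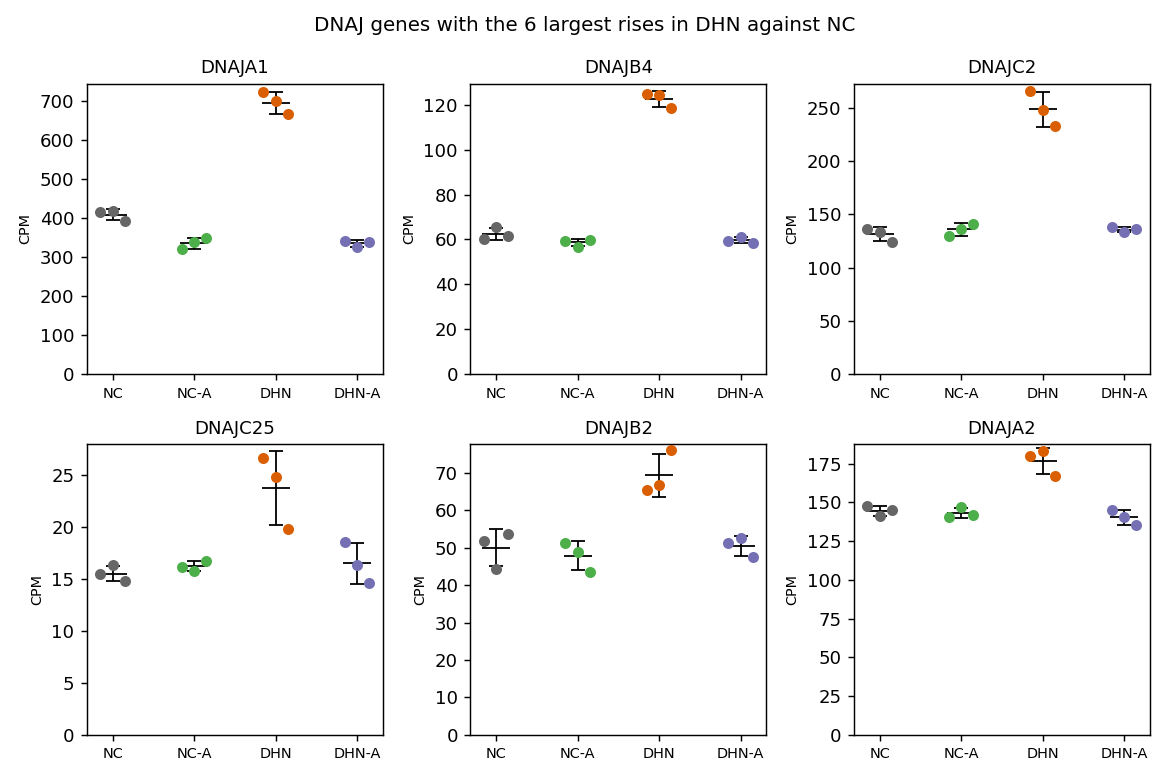
CPM of DNAJA1, DNAJB4, DNAJC2, DNAJC25, DNAJB2 and DNAJA2 in each of the 12 libraries (points), with the mean and SD of 3 libraries per group (lines). These genes were chosen for the largest rises in DHN against NC, so DHN above NC follows from the choice. In each panel the 3 DHN libraries lie above all 9 others, for DNAJB4 at 119 to 125 CPM. How many of all tested genes are separated in this way was not counted.

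Of 7 genes of the endoplasmic reticulum, 1 rose and 2 fell, near the shares of all tested genes (19.7% and 19.0%). DNAJC10, a disulfide reductase that helps clear misfolded proteins, was at 208, 206 and 202 CPM in NC, 185, 208 and 212 in NC-A and 160, 158 and 149 in the DHN libraries, with 196, 190 and 189 in DHN-A. The DHN libraries were the lowest 3 of the 12. It fell by 0.40 on the log2 scale (SE 0.043, edgeR adjusted p = 1.22e-10).

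DNAJC18 fell by 0.32 (SE 0.069), from 33.8, 38.3 and 34.5 CPM in NC to 26.8, 30.1 and 28.1 in DHN. DNAJC25 rose by 0.60 ± 0.096, from 15.5, 16.3 and 14.8 CPM in NC to 26.6, 24.8 and 19.8 in DHN. For both genes the groups did not overlap. The readthrough gene DNAJC25-GNG10 covers 13.8% of the exon bases of DNAJC25, so reads could be split between them. DNAJB12, DNAJB14, DNAJC1 and DNAJC16 were not called, with log2 changes from -0.04 to 0.09.

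Of 6 mitochondrial genes, 1 rose and 2 fell, beside 19.7% and 19.0% of all tested genes. DNAJC19, a subunit of the inner-membrane protein import motor, was at 19.7, 21.3 and 21.1 CPM in NC, 25.7, 23.4 and 24.5 in NC-A and 16.2, 15.6 and 17.9 in the DHN libraries, with 24.2, 25.2 and 23.3 in DHN-A. DHN was the lowest group and both asparagine groups were the highest, with no overlap between DHN, NC and those. In DHN it fell by 0.32 (SE 0.082, edgeR adjusted p = 0.00124). Its 9 pseudogenes in the table had 248 counts in all, beside 5171 for DNAJC19 itself.

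DNAJC15, a relative of DNAJC19 in the same import machinery, fell by 0.23 (SE 0.075), a call that ended without NC 2 or DHN 2 (edgeR adjusted p = 0.0827 and 0.0644). DNAJA3, the mitochondrial class A member, was called higher at 0.18 ± 0.061 although its libraries overlapped, at 63.7, 52.2 and 57.3 CPM in NC and 59.6, 63.2 and 71.2 in DHN. Its call ended without NC 2, NC 3 or DHN 3 (edgeR adjusted p = 0.196, 0.0588 and 0.231). DNAJC30, linked to the respiratory chain, was not called (-0.29, edgeR adjusted p = 0.0793).

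Among vesicle and endosome genes 1 of 3 fell and 0 rose, beside 19.0% and 19.7% of all tested genes. DNAJC13, which acts with retromer on endosomes, was at 104, 108 and 98.1 CPM in NC, 99.0, 99.5 and 106 in NC-A and 76.6, 78.7 and 69.3 in the DHN libraries, with 100.9, 92.7 and 100.4 in DHN-A. The DHN libraries were again the lowest 3. It fell by 0.46 (SE 0.051, edgeR adjusted p = 1.85e-10), the largest fall of the family. DNAJC5 (-0.09) and DNAJC6, the clathrin uncoating factor auxilin (0.13), were not called.

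The remaining genes had 1 of 7 that rose and 1 that fell, beside 19.7% and 19.0% of all tested genes. DNAJC7, which carries tetratricopeptide repeats that bind HSP70 and HSP90, rose by 0.13 ± 0.046. That call ended without NC 3, DHN 1 or DHN 2 (edgeR adjusted p from 0.0685 to 0.139) and with no filter on low counts. DNAJC4 fell by 0.25 (SE 0.101, edgeR adjusted p = 0.0485), a call at the threshold that ended with any of 9 libraries left out, all but NC 1, NC-A 1 and DHN 3 (adjusted p from 0.0508 to 0.208) and under DESeq2 (0.0859). DNAJC12, DNAJC14, DNAJC22, DNAJC24 and DNAJC27 were not called.

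With asparagine present, in DHN-A against NC-A, 0 of 34 genes were called higher and 1 lower, while 0.805% of all tested genes were higher and 1.29% lower, so calls were also rare over all tested genes. The median log2 change was -0.00 over the 34 genes and 0.00 over all tested genes. The exception was DNAJC8, which fell by 0.17 (SE 0.040, edgeR adjusted p = 0.0129). It was at 228, 230 and 239 CPM in NC-A and 210, 206 and 205 in DHN-A, with no overlap. The call ended without NC-A 3 or DHN-A 2 (adjusted p = 0.139 and 0.0726) and when every gene with a count was tested. The number of calls was 2 without DHN-A 3 and 1 without NC-A 1.

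The effects of 1,2-DHN with and without asparagine come from comparisons that share no library. Calls with asparagine present were few over all tested genes too, so the values of single genes are given with their intervals. For DNAJB4 the log2 change with asparagine present was 0.02 (95% interval -0.09 to 0.14), for DNAJA1 it was -0.00 (-0.09 to 0.09) and for DNAJC2 it was -0.00 (-0.11 to 0.10). For DNAJC10 it was -0.07 (-0.17 to 0.03) and for DNAJC13 -0.05 (-0.17 to 0.06). These intervals leave out the changes that the same genes had without asparagine.

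The interaction, the effect of 1,2-DHN with asparagine minus that without, tests this difference. It was negative and called for 7 genes and positive and called for 4, beside 12.5% and 13.2% of all tested genes. The interaction contains the difference between DHN and NC and shares those libraries, so that its sign is tied to that difference. The largest were DNAJB4 (-0.95 ± 0.070), DNAJC2 (-0.92 ± 0.064) and DNAJA1 (-0.77 ± 0.054). DNAJC25 (-0.58 ± 0.138), DNAJB2 (-0.40 ± 0.102), DNAJA2 (-0.32 ± 0.060) and DNAJC21 (-0.20 ± 0.066) followed. Positive values were found for DNAJC13 (0.41 ± 0.071), DNAJC10 (0.33 ± 0.060), DNAJC18 (0.32 ± 0.096) and DNAJC19 (0.30 ± 0.112).

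By class the interaction was called for 2 of 3 class A, 2 of 6 class B and 7 of 25 class C genes, beside 4593 of all 17889 tested genes. No class was tested as such. All 4 calls in classes A and B were negative, and class C had 3 negative and 4 positive. The call of DNAJC19 ended with any of 8 libraries left out, all but NC 1, NC-A 1, DHN 3 and DHN-A 3 (edgeR adjusted p from 0.0611 to 0.141), and that of DNAJC21 without NC 3, NC-A 3, DHN 1 or DHN 2 (0.0541 to 0.118). The other 9 calls held with each library left out.

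**Figure D3:**
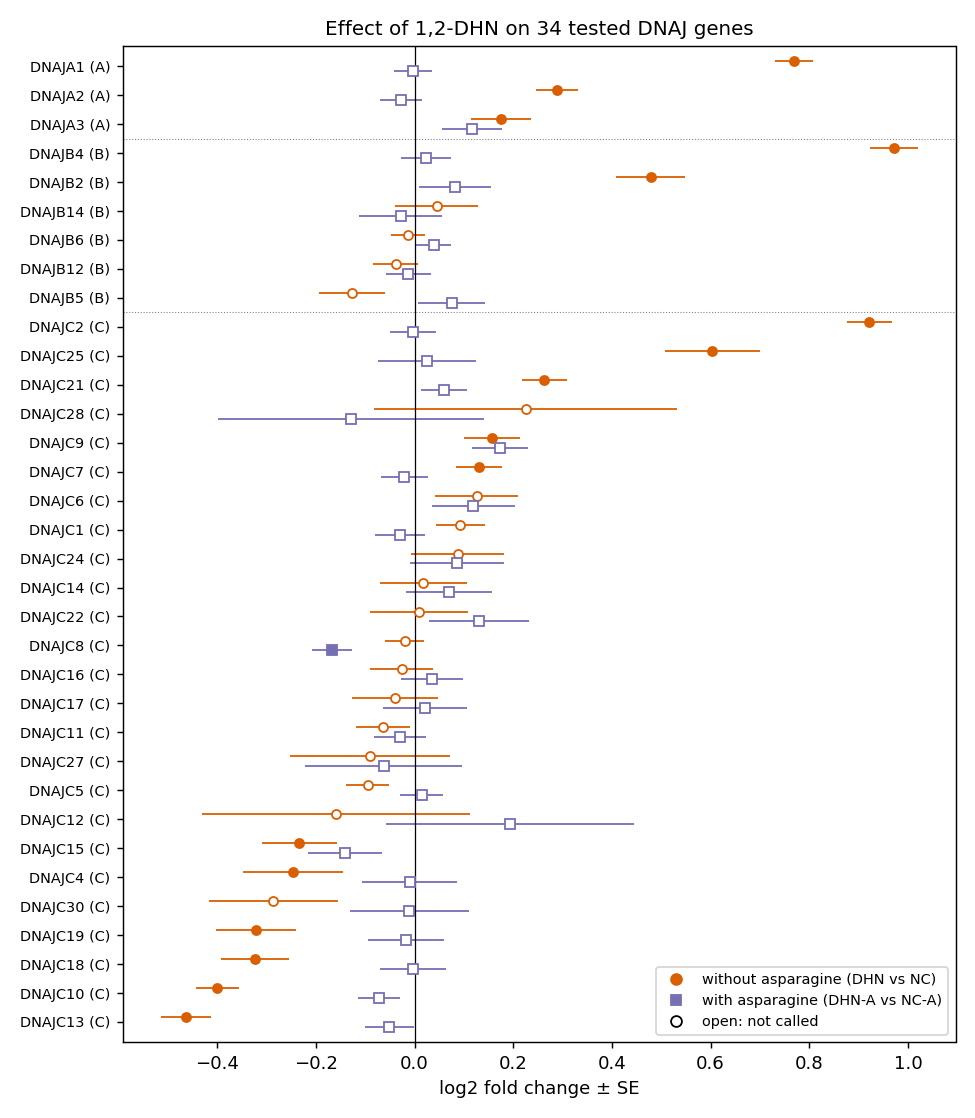
Log2 fold change with its SE for the 34 tested DNAJ genes, by class, for 1,2-DHN without asparagine (DHN against NC, circles) and with it (DHN-A against NC-A, squares). Filled symbols were called by edgeR at an adjusted p under 0.05, which holds for 16 circles and 1 square.

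Asparagine added to 1,2-DHN was set against 1,2-DHN alone in DHN-A against DHN, a comparison that shares the DHN libraries with DHN against NC. Of the 34 genes, 7 were higher in DHN-A and 11 lower, while 20.9% and 20.8% of all tested genes were higher and lower. The median log2 change was -0.05 over the 34 genes and 0.01 over all tested genes. In class A 2 of 3 fell, in class B 2 of 6 fell and in class C 7 rose and 7 fell, with 0 rises in classes A and B. Of the 18 calls, 14 held with each library left out.

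The largest falls were those of DNAJA1 (-1.05 ± 0.038, edgeR adjusted p = 9.78e-27), DNAJB4 (-1.04 ± 0.047) and DNAJC2 (-0.87 ± 0.044). DNAJC25 fell by 0.51 (SE 0.093), DNAJB2 by 0.46 (SE 0.069) and DNAJA2 by 0.33 (SE 0.042). Smaller falls were called for DNAJC7 (-0.25 ± 0.046), DNAJC1, a membrane protein of the endoplasmic reticulum (-0.19 ± 0.049), DNAJC21 (-0.14), DNAJC8 (-0.11) and DNAJC5 (-0.11). The calls of DNAJC21 and DNAJC8 ended without DHN 1 or DHN 2 (edgeR adjusted p from 0.0538 to 0.11). That of DNAJC5 ended without DHN 3, DHN-A 1 or DHN-A 2 (0.0635 to 0.202), and all 3 ended with no filter on low counts.

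Genes higher in DHN-A than in DHN were all of class C, which holds 25 of the 34 tested genes. DNAJC30 was at 6.20, 6.04 and 6.91 CPM in DHN and 9.40, 10.04 and 9.20 in DHN-A, and rose by 0.58 ± 0.125 (edgeR adjusted p = 0.000173). BUD23 on the opposite strand covers 14.5% of its exon bases. DNAJC19 rose by 0.54 ± 0.079, DNAJC4 by 0.42 ± 0.098, DNAJC13 by 0.39 ± 0.050, DNAJC18 by 0.31 ± 0.067 and DNAJC10 by 0.30 ± 0.043.

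DNAJC4 was at 10.2, 9.95 and 11.4 CPM in DHN and 14.3, 14.7 and 13.5 in DHN-A, with no overlap, and NUDT22 covers 10.6% of its exon bases on the same strand. DNAJC12, a cochaperone of aromatic amino acid hydroxylases, was at 1.38 to 1.61 CPM in DHN and 2.15 to 2.30 in DHN-A (0.62 ± 0.255, edgeR adjusted p = 0.0477). Its call ended when any 1 of the 6 libraries compared was left out (adjusted p from 0.0626 to 0.137) and under DESeq2 (adjusted p = 0.0927).

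**Figure D4:**
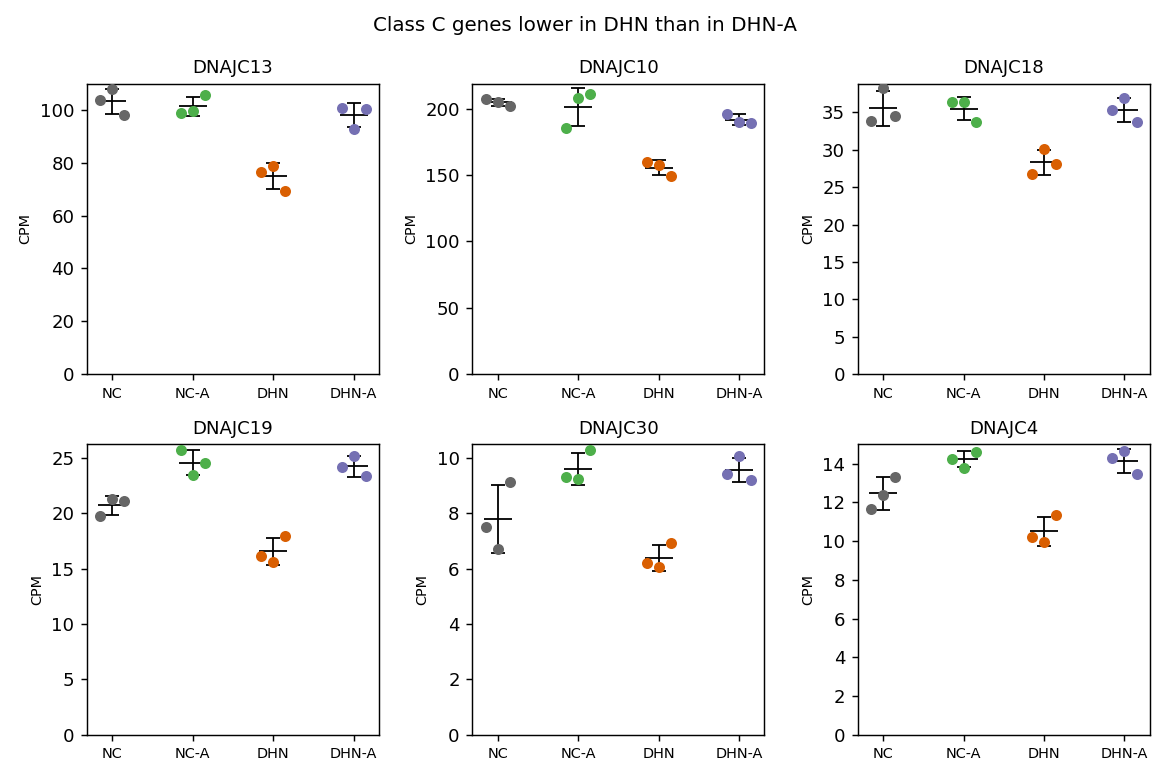
CPM of the class C genes DNAJC13, DNAJC10, DNAJC18, DNAJC19, DNAJC30 and DNAJC4 in each of the 12 libraries (points), with the mean and SD of 3 libraries per group (lines). The 6 genes were chosen for the largest called rises in DHN-A against DHN, so DHN below DHN-A follows from the choice. The 3 DHN libraries lie below all 9 others in 5 of the 6 panels, for DNAJC10 at 149 to 160 CPM. The exception is DNAJC30, where DHN overlaps with NC. The share of all tested genes with such a separation was not counted.

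Asparagine alone was set against no addition. In NC-A against NC, 2 of 34 genes were higher and 5 lower, beside 9.32% and 10.9% of all tested genes, with medians of 0.02 over the 34 and 0.00 over all. By class, 1 of 3 class A genes and 3 of 6 class B genes were lower, and in class C 2 were higher and 1 lower. DNAJA1 fell by 0.28 (SE 0.039, edgeR adjusted p = 2.75e-07), DNAJB5 by 0.28 (SE 0.069) and DNAJC5 by 0.22 (SE 0.044), and these calls held with each library left out. DNAJC5 was at 167, 152 and 158 CPM in NC and 142, 131 and 137 in NC-A.

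The other 4 calls each ended when single libraries were left out. DNAJB6 was at 442, 472 and 467 CPM in NC-A, below all NC libraries, with the lowest value in NC-A 1 (-0.13 ± 0.035, edgeR adjusted p = 0.00747), and its call ended without that library (-0.10, adjusted p = 0.0712). DNAJB12, anchored in the membrane of the endoplasmic reticulum, was called at -0.13 ± 0.046 and ended without NC 1, NC 3, NC-A 2 or NC-A 3 (0.0868 to 0.138). DNAJC19 was called at 0.24 ± 0.080 and ended without NC 1, NC-A 1 or NC-A 3 (0.0716 to 0.112). DNAJC28, at 0.928 to 1.30 CPM in NC and 1.95 to 2.25 in NC-A, was called at 0.92 ± 0.296 and ended without NC 2, NC 3 or NC-A 2 (0.0531 to 0.0971). DNAJA3 became a call without NC 1 (edgeR adjusted p = 0.0253).

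Cells given both compounds were also set against untreated cells, a comparison that shares the NC libraries with the previous one. In DHN-A against NC, 4 of 34 genes were higher and 5 lower, beside 9.83% and 11.2% of all tested genes, with medians of 0.00 over the 34 and 0.00 over all. By class, A had 1 higher and 1 lower, B had 2 lower and C had 3 higher and 2 lower. DNAJA1 fell by 0.29 (SE 0.038, edgeR adjusted p = 1.25e-07), DNAJC5 fell by 0.20 (SE 0.043) and DNAJA3 rose by 0.25 ± 0.059, and these 3 calls held with each library left out. DNAJB4 (-0.06 ± 0.049) and DNAJC2 (0.05 ± 0.045) were not called.

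The other 6 calls of this comparison ended with single libraries left out. DNAJC8 (-0.13) ended without NC 1 (edgeR adjusted p = 0.114), and DNAJB12 (-0.14) without NC 3, DHN-A 1 or DHN-A 2 (0.0562 to 0.0693). DNAJB5 (-0.20) ended without NC 1, NC 3, DHN-A 2 or DHN-A 3 (0.0525 to 0.0907), and DNAJC19 (0.22) without NC 1, NC 3, DHN-A 1 or DHN-A 2 (0.0528 to 0.12). DNAJC28 (0.80) ended without NC 2, NC 3, DHN-A 1 or DHN-A 3 (0.0928 to 0.176). DNAJC21 (0.12) ended with any of 8 libraries left out, all but NC 1, NC-A 1, NC-A 3 and DHN 3 (0.0512 to 0.241). The count for the comparison was 5 without NC 3, DHN-A 1 or DHN-A 2, and the number called higher was 1 under DESeq2 and 2 under limma-voom.

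The genes called in 0 of the 6 comparisons were DNAJB14, DNAJC6, DNAJC11, DNAJC14, DNAJC16, DNAJC17, DNAJC22, DNAJC24 and DNAJC27. They include DNAJC11 of the mitochondrial inner membrane organising system and DNAJC24, needed for diphthamide on elongation factor 2. The share of all tested genes called in none was not counted, so this list is not a result about the family. The lowest mean count among them was 96.42 (DNAJC27). Genes on the opposite strand cover 27.92% of the exon bases of DNAJC11, 34.85% of DNAJC14 and 26.11% of DNAJC17.

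The HSP70 machinery around the family was read from lists of its partners. Of 11 tested HSP70 genes, 7 rose and 2 fell in DHN against NC, beside 19.7% and 19.0% of all tested genes, and the median log2 change was 0.52. HSPA8, the constitutive HSP70, named here after its values were seen, was at 2201, 2310 and 2217 CPM in NC and 1993, 1918 and 1956 in NC-A. It was at 2898, 2853 and 2778 CPM in DHN and 1890, 1872 and 1954 in DHN-A. DHN thus lay above NC, and both asparagine groups lay below NC. HSPA8 was not called in DHN-A against NC-A (-0.0376 ± 0.0325, edgeR adjusted p = 0.717). Inducible HSPA6, HSPA1A and HSPA1B had the largest changes in DHN against NC (6.86, 5.06 and 2.85). HSPA1A and HSPA1B are near-identical copies whose counts are uncertain, since reads could be split between them. In DHN-A against NC-A, 3 of the 11 rose and 1 fell, beside 0.805% and 1.29% of all tested genes, and the 3 were HSPA1A (2.09 ± 0.178), HSPA6 (1.77 ± 0.110) and HSPA1B (0.37 ± 0.083).

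Of 13 nucleotide exchange factors, which reopen HSP70 after hydrolysis, 9 rose and 1 fell in DHN against NC (median 0.42), beside 19.7% and 19.0% of all tested genes. In DHN-A against DHN 1 rose and 9 fell, beside 20.9% and 20.8%. BAG3 rose by 1.51 ± 0.036, HSPA4L by 0.99 ± 0.054 and BAG1 by 0.92 ± 0.061. In DHN-A against NC-A only BAG3 of the 13 was called (0.16 ± 0.037, edgeR adjusted p = 0.00788).

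Of 8 tested J proteins outside the rule, 3 rose and 3 fell in DHN against NC (19.7% and 19.0% of all tested genes). DNAJB1, the main heat-inducible class B member, was at 179, 190 and 193 CPM in NC and 462, 461 and 464 in DHN, and rose by 1.30 ± 0.039. DNAJB9, of the endoplasmic reticulum, rose by 0.30 ± 0.067, and DNAJC3, of the same compartment, fell by 0.24 (SE 0.059). Of 6 other HSP70 partners and heat shock factors, 2 rose and 0 fell: STIP1, which links HSP70 to HSP90 (0.42 ± 0.035), and ST13, which stabilises the bound state of HSP70 (0.31 ± 0.038).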

How the data were processed

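RNA from 12 libraries of SRA01/04 cells (4 groups of 3) was sequenced from stranded libraries, per the labels' protocols. The authors deposited 1 table of raw read counts per gene symbol with a gene length, in another unit (bases). Per the submitters' processing notes, reads were aligned with Bowtie to hg38. The sources used here do not give the aligner's version and settings, the counting tool, its strand setting or the annotation, so reads of overlapping or near-identical genes could be split in unknown ways.

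Genes passing filterByExpr (17889 of 60641) were tested with edgeR 4.0.16 in R 4.3.3: trimmed mean of M values factors, a robust quasi-likelihood fit with 1 mean per group over all 12 libraries, and Benjamini-Hochberg adjustment over all tested genes with a threshold of 0.05. Standard errors were derived from each fold change and its F value and are approximate. Intervals are 95% with 8 residual degrees of freedom. CPM were computed here from the scaled library sizes, and CPM per kilobase with the deposited length.

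The rule allowed every member to be named. Class A was given in full, as were the called genes with the largest rises and falls and a mean of at least 50 counts (6 each way in DHN against NC and DHN-A against DHN, 4 each way otherwise), with up to 3 genes of each partner list, to which HSPA8 was added after its values were seen. The members and lists were chosen with earlier results of these data known. Positions come from GENCODE release 29 and promoters from RefSeq (GRCh38.p14). The test was tried on simulated data. Alternatives were DESeq2 1.42.0, limma-voom (limma 3.58.1), edgeR with relative log expression factors, no filter on low counts, only the groups compared, the replicate number as a block, a minimum change of 1.5-fold, and each library left out.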

Additional observations from a re-analysis of the deposited data

Results flagged for a closer look

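The effect of 1,2-DHN differed between cells with and without asparagine, by the interaction test in edgeR, for 11 of 34 tested DNAJ genes. The same test called 4593 of all 17889 tested genes. On the log2 scale the effect with asparagine minus the effect without was -0.95 for DNAJB4, -0.92 for DNAJC2, -0.77 for DNAJA1, -0.58 for DNAJC25, -0.40 for DNAJB2, -0.32 for DNAJA2 and -0.20 for DNAJC21. It was 0.41 for DNAJC13, 0.33 for DNAJC10, 0.32 for DNAJC18 and 0.30 for DNAJC19. The adjusted p-values ran from 1.18e-15 (DNAJA1 and DNAJC2) to 0.039 (DNAJC19). Groups of 3 libraries were not tested for a single library far from the others.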

How the results depend on the processing

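Numbers of DNAJ genes called stayed within 1.5 times the reported ones in 34 of 41 alternatives other than leaving out a library. With a minimum change of 1.5-fold the count was 3 in DHN against NC, 3 in DHN-A against DHN, 3 in the interaction, and 0 in NC-A against NC, DHN-A against NC-A and DHN-A against NC. With no filter on low counts it was 5 in DHN-A against NC. With 1 library left out the counts ran from 12 to 16 in DHN against NC, 15 to 19 in DHN-A against DHN, 5 to 7 in NC-A against NC, 0 to 2 in DHN-A against NC-A, 5 to 10 in DHN-A against NC and 9 to 14 in the interaction. Only uncalled changes turned sign: in DHN-A against NC-A, DNAJA1 (-0.0033) was 0.0294 with no filter, and with 1 library left out it ran from -0.0353 (without NC-A 1) to 0.0289 (without NC-A 3), being also above 0 without NC-A 2 (0.0031) and DHN-A 2 (0.0163). DNAJA2 was 0.0048 with no filter. In the interaction DNAJA3 (-0.06) ran from -0.1251 (without NC 1) to 0.0121 (without DHN 3) and was 0.0104 without NC 2. The cause was not tested. Same-numbered libraries of different groups had residual correlations from -0.176 to 0.229, over 0.1 in 1 of 18 pairs, and 5 of 12 libraries correlated best with their own number, so the numbers were not taken as pairs. With the replicate block the counts were 15 in DHN against NC, 17 in DHN-A against DHN, 7 in NC-A against NC, 1 in DHN-A against NC-A, 8 in DHN-A against NC and 11 in the interaction, and the calls that ended were DNAJC4 in DHN against NC (adjusted p = 0.0536), DNAJC12 in DHN-A against DHN (0.0566) and DNAJC21 in DHN-A against NC (0.0642). Depth limits the genes near 1 CPM, DNAJC12 and DNAJC28, and the 5 that failed the filter.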
